A study of Mus musculus with 2 samples.

Results

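The adenosine pathway of tumour-infiltrating natural killer (NK) cells was described through 4 genes: Entpd1 and Nt5e, which encode the ecto-enzymes CD39 and CD73, and Adora2a and Adora2b, which encode the adenosine receptors A2AR and A2BR. The genes were taken by name, as 4 of the 53715 genes in the files, at a time when an Entpd1 value from these libraries was already known. Unique molecular identifiers (UMIs) of these genes were summed over barcodes with at least 1 UMI of Ncr1, the gene of NKp46, in the clusters that kept NK markers. These NK cells numbered 6997 of 8386 barcodes in the IL-15SA library and 9764 of 12435 in the IL-15SA+IL-21Fc library. A separate set of 571 and 1351 tumour-like barcodes was read for the same genes.

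Both libraries came from CT26_b2m-/- tumours, a mouse colon carcinoma that by its name lacks B2m, the light chain of MHC class I, and from cells sorted as CD45.2+CD3-NKp46+. The tumours of 1 group had received IL-15SA, and those of the other group IL-15SA with IL-21Fc, called the combination below. Host strain, age, dose, time and the number of animals are not stated in the labels. All cells of a treatment were pooled before loading on a microwell chip, so each group was 1 library, no test was possible, and no difference below has a replicate check. All intervals are 95% intervals that cover counting error only.

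Extracellular ATP is released by stressed and dying cells and acts as an alarm signal for immune cells. CD39 cuts ATP and ADP to AMP, and CD73 cuts AMP to adenosine. Adenosine binds A2AR and A2BR, which couple to a stimulatory G protein and raise cyclic AMP (cAMP), and A2AR signalling is known to restrain the cytotoxicity of NK cells and T cells.

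The IL-15SA library held 30893388 UMIs and the combination library 35336180. The NK cells had a median of 3215 UMIs in the IL-15SA library and 2438 in the combination library, and 60 barcode sequences occurred in both libraries. Levels are given as CPM, a gene's UMIs per 1000000 UMIs summed over the cells, and they are not scaled to transcript length, so levels are compared between libraries and clusters and not between genes. Clusters are given by number with their leading genes. Cluster 1 was led by Khdc1a, Cd3g and the Ly49 receptor genes Klra7 and Klra1, cluster 2 by the cell cycle genes Esco2, Rrm2 and Mki67, and cluster 3 by Cma1, S1pr5, Ccl5 and Ccl3. Cluster 4 was led by Cd74, H2-Aa, Il7r and Cxcr6, cluster 6 by the granzyme genes Gzmg and Gzmd and by Havcr2, cluster 7 by the interferon response genes Slfn5, Ifit2 and Mx2, and cluster 8, with 120 cells, by Gm29328. Il7r and Cxcr6 are also markers of type 1 innate lymphoid cells (ILC1), which carry NKp46 and pass the sort.

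Entpd1 (ENSMUSG00000048120) was lower in the combination library. The gene lies on the plus strand of chromosome 19 at 40612366 to 40741602 (GRCm38, GENCODE M21), and 3 annotated features, the pseudogenes Gm16027 and Gm8783 and the intronic transcript AC166063.1, lie within it on the same strand. RefSeq (GRCm38.p6) lists 2 start sites for it. The bases just upstream of each are shown because Entpd1 is the gene whose level the results turn on. They run 5′ to 3′ on the plus strand, with a match to GCGTG, the core of a hypoxia response element, in capitals. The first, chr19:40612234-40612365, was cut at its left end where exons of the opposite-strand gene Tctn3 begin, and the second is chr19:40659520-40659769.
Entpd1 first start site: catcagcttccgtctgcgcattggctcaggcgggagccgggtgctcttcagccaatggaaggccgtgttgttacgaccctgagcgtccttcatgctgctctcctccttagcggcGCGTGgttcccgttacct
Entpd1 second start site: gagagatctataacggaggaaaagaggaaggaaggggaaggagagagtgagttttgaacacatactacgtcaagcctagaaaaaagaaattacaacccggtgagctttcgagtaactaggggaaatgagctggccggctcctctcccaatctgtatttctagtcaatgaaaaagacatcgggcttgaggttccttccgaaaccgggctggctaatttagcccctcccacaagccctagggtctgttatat
The 250 bases upstream of both sites were searched on both strands for TTCNNNGAA (a STAT motif), TGACGTCA (the cAMP response element) and the hypoxia cores ACGTG and GCGTG. A single GCGTG at position -18 of the first site was the only match. Over the 32851 windows of 250 bases of this kind, GCGTG occurred in 28.2%, ACGTG in 16.6%, TTCNNNGAA in 7.02% and TGACGTCA in 1.55%.

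In NK cells, 2559 Entpd1 UMIs in the IL-15SA library gave 96.5 CPM (92.8 to 100.3), and 1985 UMIs in the combination library gave 71.4 CPM (68.3 to 74.6). The intervals did not overlap, and Entpd1 was 1.35-fold lower with the combination (1.27 to 1.43). On the log2 scale with 1 CPM added to both values the difference was -0.43. Of 9182 genes at 5 CPM or more in 1 of the libraries, 1.58% had a lower log2 ratio than Entpd1, and the median over all of them was -0.0022. None of the 4 genes was past 1.5-fold, the size used for counts of genes here, which 2.81% of the 9182 genes passed, 2.27% in the direction of the combination and 0.545% in the direction of the IL-15SA library.

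**Figure D1:**
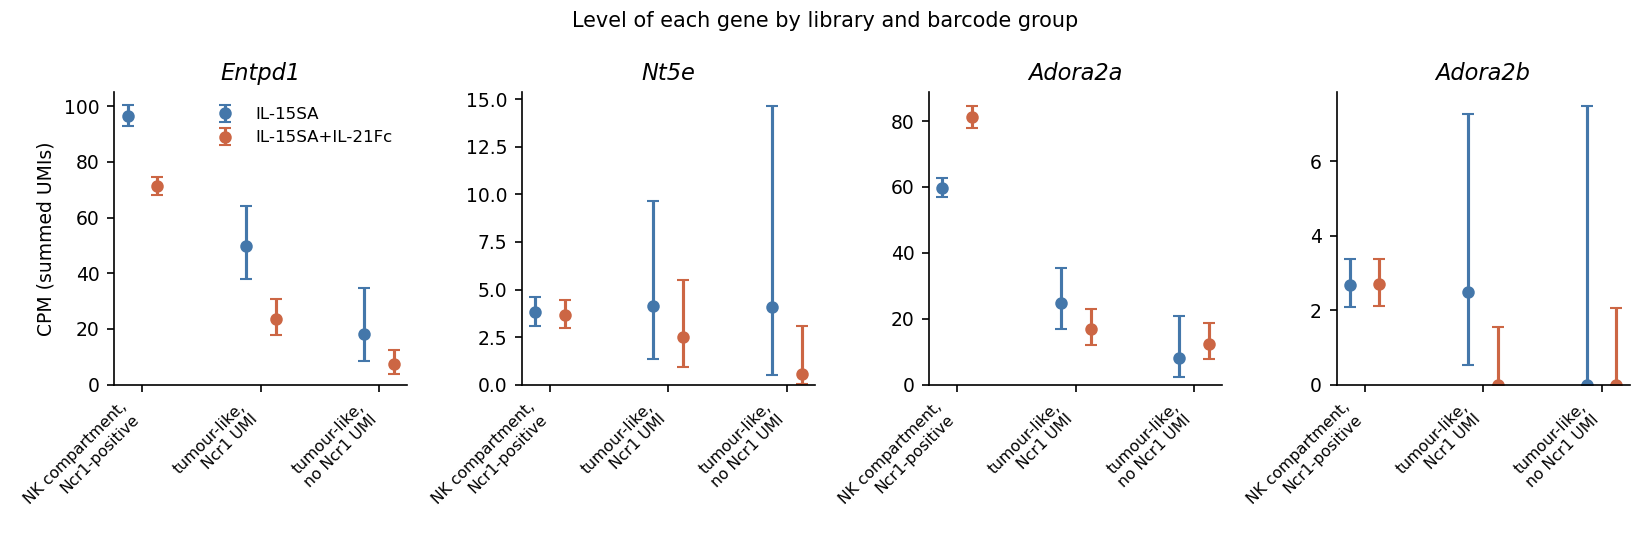
Level of each gene in CPM of summed UMIs (vertical axes, linear) in Ncr1-positive NK cells and in tumour-like barcodes with and without an Ncr1 UMI, with 1 point per library. Bars are exact Poisson intervals at 95%, for counting error only; in NK cells Entpd1 was at 96.5 and 71.4 CPM and Adora2a at 59.8 and 81.3 CPM in the IL-15SA and the combination library.

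A smaller share of NK cells had an Entpd1 UMI in the combination library. At the depth deposited, 1790 of 6997 NK cells (25.6%, 24.6 to 26.6) had an Entpd1 UMI in the IL-15SA library, and 1561 of 9764 (16.0%, 15.3 to 16.7) in the combination library. The libraries differ in UMIs per cell, so each cell was also thinned at random to 1000 UMIs, a depth that every retained cell reached. The shares were then 8.55% (7.90 to 9.23) and 6.83% (6.34 to 7.35). For comparison, tumour-like barcodes with no Ncr1 UMI had median depths of 1703 and 1888 UMIs. Their thinned shares were 2.87% (0.939 to 6.58) and 1.63% (0.784 to 2.97). The NK shares lay above these in both libraries. These barcodes are another group of cells, in which Entpd1 may be expressed, so the comparison does not measure background. Cells with 3 or more Entpd1 UMIs numbered 158 (2.26%) and 65 (0.666%), not thinned, and the highest count in a single cell was 8 and 6. Such counts also depend on UMIs per cell, which were higher in the IL-15SA library, so no difference is read from them.

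Within clusters Entpd1 had the same direction. Of the 6 NK clusters with at least 100 cells in each library, Entpd1 was lower in the combination library in 6, with ratios of the combination over the IL-15SA library from 0.672 in cluster 4 to 0.873 in cluster 3. The interval of the ratio lay below 1 in clusters 1, 2, 4 and 6, and it reached 1 in clusters 3 and 7. Entpd1 was at 139 and 106 CPM in cluster 7, the interferon response cluster, which came first of these 6 in both libraries. Cluster 6, the granzyme cluster, had 122 and 83.1 CPM, and cluster 3, led by Cma1, had 112 and 97.5 CPM. Cluster 1, led by Ly49 genes, had 108 and 84.5 CPM. The intervals of neighbours in this order overlapped from cluster 7 down to cluster 1 in the IL-15SA library and from cluster 7 down to cluster 2 in the combination library.

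The cell cycle cluster, 2, had 87.0 and 62.2 CPM of Entpd1. The lowest level was in cluster 4, with 43.1 CPM (125 UMIs) and 29.0 CPM (138 UMIs), and in both libraries its interval lay below that of cluster 2, the next in order. Cluster 8, led by Gm29328, had 213 and 172 CPM from 23 and 15 UMIs, too few to rank it. Since the level differed between clusters, the ratio was also taken without cluster 4 (0.778, 0.732 to 0.827) and with the clusters of the IL-15SA library in the same proportions in both (0.752). ILC1 marker genes, of which cluster 4 holds 2 among its leading genes, summed to 528 and 781 CPM in cells with an Entpd1 UMI and to 830 and 1207 CPM in cells without, with all 8 markers detected in each. The part of ILC1 in the difference was not tested.

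**Figure D2:**
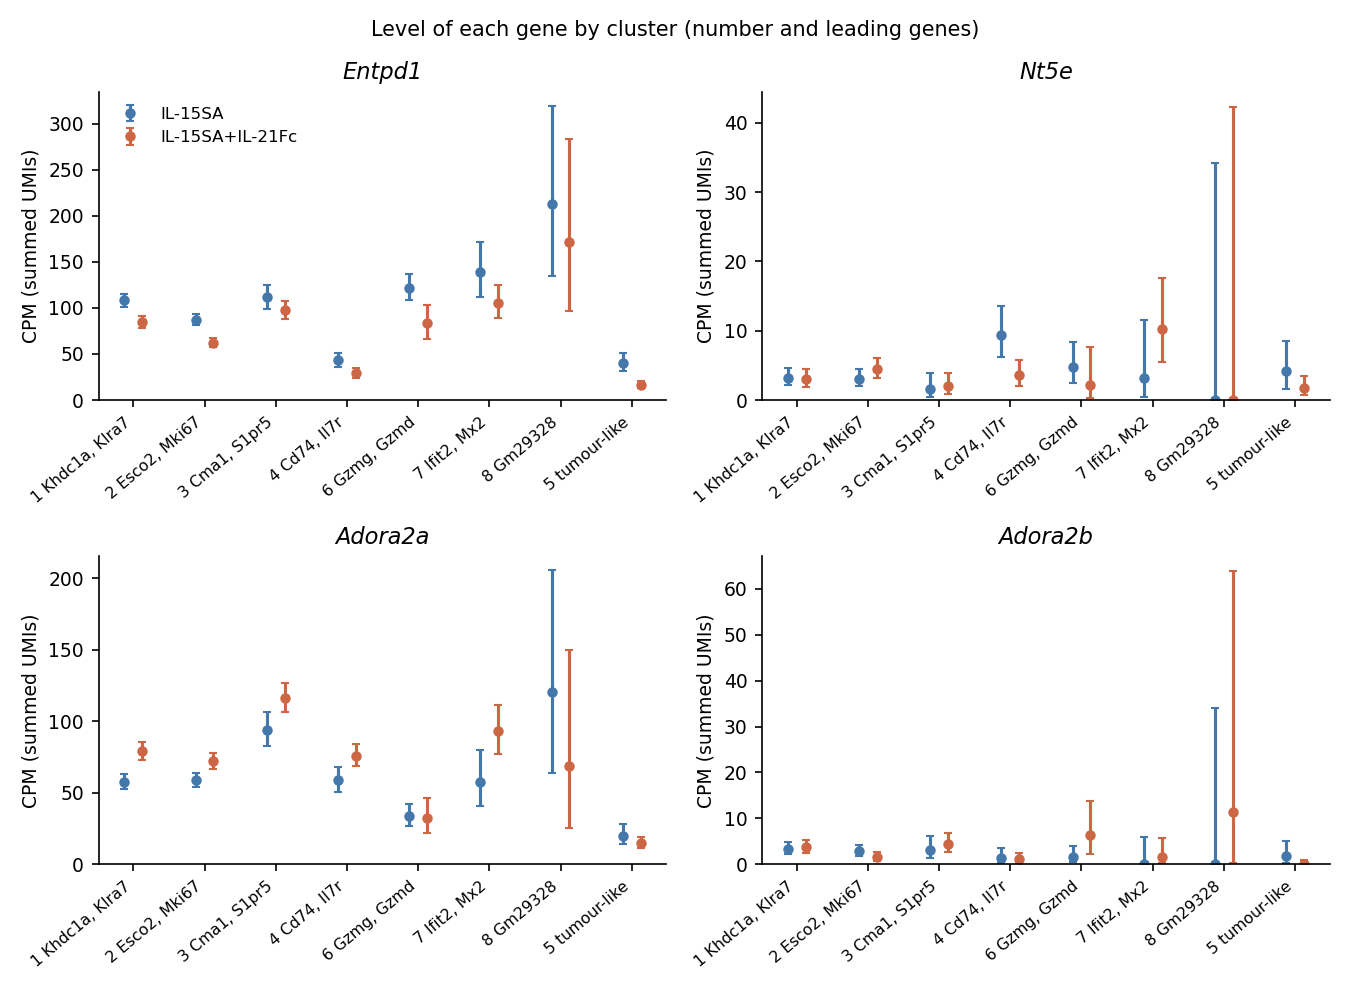
Level of each gene in CPM of summed UMIs (vertical axes, linear, 1 scale per gene) in each cluster of the NK cells and in the tumour-like cluster, with 1 point per library and exact Poisson intervals at 95%. Entpd1 is lowest among NK clusters in cluster 4 (43.1 and 29.0 CPM), and Adora2a is highest in cluster 3 (93.9 and 116 CPM) among clusters with at least 100 cells in each library.

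Nt5e (ENSMUSG00000032420), on the plus strand of chromosome 9 at 88327197 to 88372092, was detected in few NK cells. The IL-15SA library held 101 UMIs in 88 cells (1.26% of NK cells, not thinned) and the combination library 102 UMIs in 81 cells (0.830%). Its level was 3.81 CPM (3.10 to 4.63) and 3.67 CPM (2.99 to 4.45), with a ratio of 0.963 (0.724 to 1.28). A difference between the libraries was therefore not detectable at this depth, and the interval admits a level up to 1.38-fold lower or 1.28-fold higher in the combination library.

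After thinning, 0.429% (0.289 to 0.612) and 0.287% (0.191 to 0.414) of NK cells had an Nt5e UMI. In tumour-like barcodes without an Ncr1 UMI a single thinned barcode in each library had one, 0.575% (0.0145 to 3.16) and 0.163% (0.00412 to 0.904). Over all NK cells the shares lay within these intervals, which rest on 1 barcode each. Such intervals are too wide to tell whether the NK UMIs are expression. Tumour-like barcodes may also express Nt5e themselves, since CD73 is widely found on stroma and carcinoma cells, so they do not measure background. No conclusion is drawn from this comparison. Over all UMIs, the level in these barcodes was 4.06 CPM (0.491 to 14.7) from 2 UMIs in the IL-15SA library, which includes the NK level, and 0.557 CPM (0.0141 to 3.11) from 1 UMI in the combination library, whose interval overlapped that of the NK level. The ratio of the latter to NK cells, 0.152 (0.00381 to 0.866), rests on that 1 UMI.

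By cluster, Nt5e had its highest level in the IL-15SA library in cluster 4, 9.32 CPM from 27 UMIs, where the combination library had 3.57 CPM from 17 UMIs. Its interval in the IL-15SA library (6.14 to 13.6) lay above those of clusters 1, 2 and 3, whose levels were 3.21, 3.10 and 1.54 CPM, and overlapped those of clusters 6 and 7. It also overlapped the interval of the tumour-like barcodes without an Ncr1 UMI in that library, which rests on 2 UMIs. The thinned share in cluster 4, 1.26% (0.650 to 2.18), lay within the interval of their share too. Both intervals are wide, and tumour-like barcodes may express Nt5e themselves, so whether the cluster 4 level is expression cannot be told from them. That level is given as a count of UMIs. The ratio of the counts in cluster 4 was 0.383 (0.196 to 0.729). In cluster 7 the levels were 3.21 CPM from 2 UMIs and 10.3 CPM from 13 UMIs, a ratio of 3.20 (0.725 to 29.2). In the other 4 clusters the interval of the ratio included 1. CD39 and CD73 act one after the other, and cells with a UMI of both genes numbered 22 in the IL-15SA library and 14 in the combination library, not thinned, or 0.314% and 0.143% of NK cells. After thinning to equal depth there were 0 and 1 such cells, where the product of the 2 genes' shares within clusters gave 2.17 and 1.90. No difference between the libraries is therefore read from the unthinned counts.

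Adora2a (ENSMUSG00000020178), on the plus strand of chromosome 10 at 75316877 to 75334784, was higher in the combination library. With 1586 and 2261 UMIs its level was 59.8 CPM (56.9 to 62.8) and 81.3 CPM (78.0 to 84.7), and the intervals did not overlap. The ratio was 1.36 (1.27 to 1.45), a log2 difference of 0.44, and 95.5% of the 9182 genes had a lower log2 ratio. At the depth deposited, the share of NK cells with an Adora2a UMI was 17.8% (16.9 to 18.7) and 17.9% (17.1 to 18.7). Thinned to 1000 UMIs, the shares were 6.36% (5.80 to 6.96) and 7.68% (7.16 to 8.23), against 1.72% (0.357 to 4.96) and 0.977% (0.359 to 2.11) in tumour-like barcodes with no Ncr1 UMI. The libraries thus had like shares before depth was set equal, and the combination library had the higher share after it.

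In 5 of the 6 NK clusters with enough cells, Adora2a was higher in the combination library, each with an interval of the ratio above 1. Cluster 3, led by Cma1 and S1pr5, had the highest level, 93.9 and 116 CPM, and in the IL-15SA library its interval lay above that of the next cluster. Clusters 1, 2 and 4 had 57.8, 58.9 and 58.7 CPM in the IL-15SA library and 78.9, 72.1 and 76.0 CPM in the combination library, and their intervals overlapped. Cluster 7 had 57.7 and 93.2 CPM, with the largest ratio of the 6 (1.62, 1.10 to 2.42). The granzyme cluster, 6, had the lowest level, 33.8 and 32.6 CPM, and a ratio of 0.965 (0.618 to 1.47), so a difference within it was not detectable. With the clusters of the IL-15SA library in the same proportions in both libraries, the ratio over all NK cells was 1.27.

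**Figure D3:**
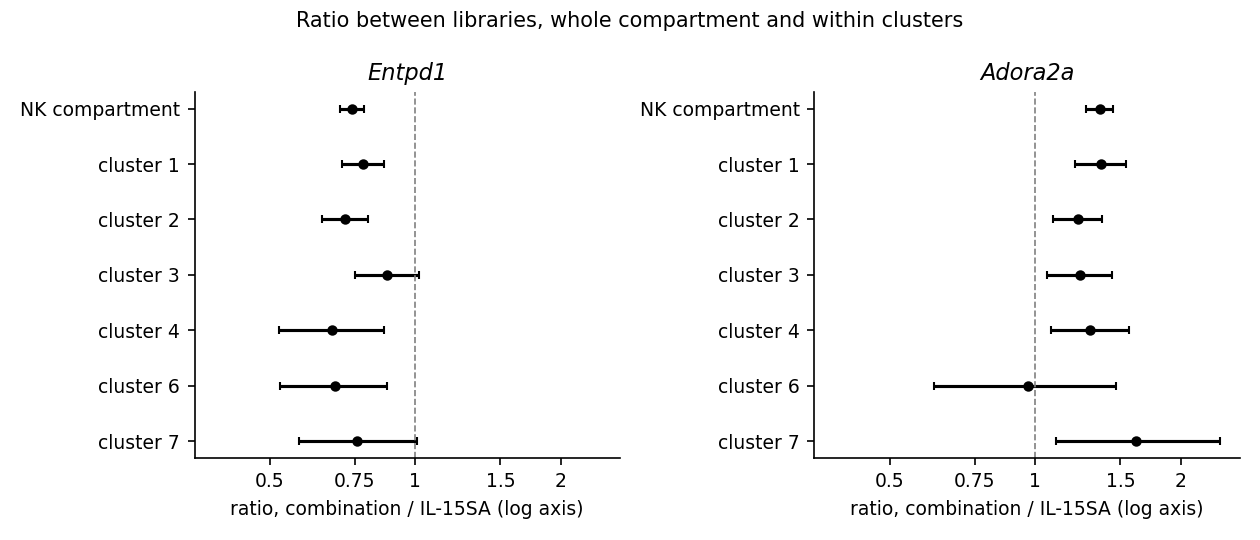
Ratio of the combination over the IL-15SA library (horizontal log axes) for Entpd1 and Adora2a, over all Ncr1-positive NK cells and within each NK cluster with at least 100 cells in each library, with exact conditional binomial intervals at 95%. Entpd1 lies below 1 in 6 of 6 clusters and Adora2a above 1 in 5 of 6, the exception being cluster 6 at 0.965.

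The levels of Entpd1 and Adora2a did not follow each other over clusters. Over 12 profiles, the 6 clusters in each library with each library centred on its own mean, the Pearson correlation of log2(CPM + 1) was 0.017, a description over points that share 2 libraries. Cluster 6 was lowest in Adora2a in both libraries while its Entpd1 level was below that of cluster 7 alone in the IL-15SA library (122 CPM) and below those of clusters 7, 3 and 1 in the combination library (83.1 CPM), and cluster 4 was lowest in Entpd1 and intermediate in Adora2a. Cells with UMIs of both genes numbered 384 (5.49% of NK cells) in the IL-15SA library and 325 (3.33%) in the combination library, not thinned. After thinning they numbered 42 (0.600%) and 62 (0.635%), where the product of the 2 genes' shares within clusters gave 38.7 and 53.3 cells.

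**Figure D4:**
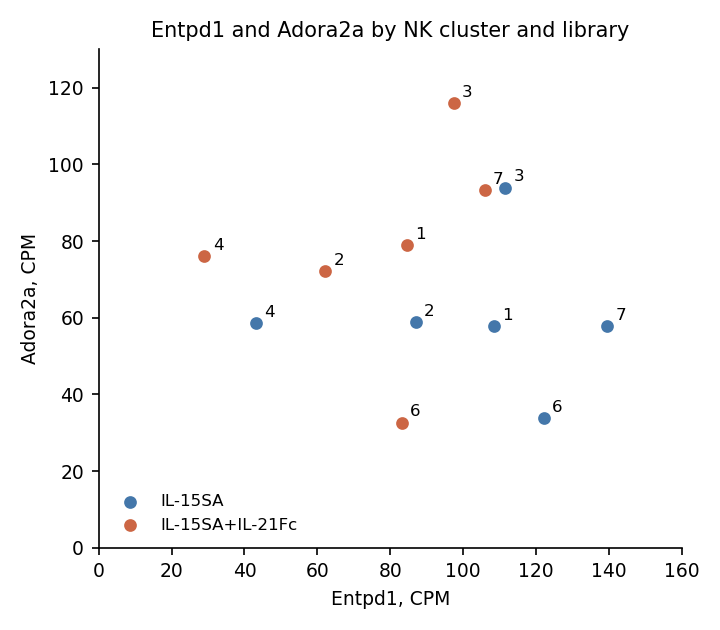
Entpd1 level (horizontal axis, CPM) against Adora2a level (vertical axis, CPM) in the 6 NK clusters with at least 100 cells in each library, 1 point per cluster and library, labelled by cluster number. Cluster 4 lies at the left (43.1 and 29.0 CPM of Entpd1) and cluster 6 at the bottom (33.8 and 32.6 CPM of Adora2a).

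Adora2b (ENSMUSG00000018500), on the plus strand of chromosome 11 at 62248984 to 62266453, encodes the receptor of lower affinity for adenosine. It had 71 and 75 UMIs in NK cells, 2.68 CPM (2.09 to 3.38) and 2.70 CPM (2.12 to 3.38), with a ratio of 1.01 (0.718 to 1.41). Not thinned, 0.858% and 0.645% of NK cells had a UMI. After thinning the shares were 0.200% (0.109 to 0.335) and 0.256% (0.166 to 0.378). Tumour-like barcodes without an Ncr1 UMI held 0 Adora2b UMIs in either library. For 174 and 614 barcodes, 3 UMIs would be 6.09 and 1.67 CPM, and the exact Poisson upper limit is 7.48 and 2.06 CPM, or 2.10% and 0.599% of barcodes as a thinned share. The thinned NK shares lay under these limits. As upper bounds for a count of 0 in few barcodes, the limits cannot tell whether a share under them is expression. Over all UMIs, the NK level in the combination library, 2.70 CPM (2.12 to 3.38), lay above its limit of 2.06 CPM. That in the IL-15SA library (2.68 CPM) lay under its limit of 7.48 CPM. A difference between the libraries was not detectable. The 2 other adenosine receptor genes, Adora1 and Adora3, had 0 UMIs in NK cells of both libraries; a 0 in these files can also come from how reads were assigned to genes.

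The tumour-like barcodes were 1 cluster, 5, led by Saa3, Dcn, Lrp1 and Col1a2. It had 10 of 16 tumour and stroma markers at 5 times their median over clusters or more, and NK markers at a median of 0.271 of theirs. Entpd1 was at 40.6 CPM (31.6 to 51.4) there in the IL-15SA library and at 16.5 CPM (12.9 to 20.9) in the combination library, from 69 UMIs each. That is 2.38-fold (1.87 to 3.06) and 4.31-fold (3.39 to 5.57) below the NK cells of the same library. Adora2a was at 20.01 and 14.9 CPM, 2.99-fold (2.13 to 4.33) and 5.47-fold (4.25 to 7.16) below.

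Many of these barcodes held Ncr1 UMIs, 397 of 571 and 737 of 1351, and the Entpd1 level differed with their number. With 0, 1, 2 and at least 3 Ncr1 UMIs, Entpd1 was at 18.3, 31.1, 27.7 and 96.4 CPM in the IL-15SA library. The same 4 classes had 7.25, 14.4, 28.3 and 36.5 CPM in the combination library. Ptprc, the gene of the leukocyte antigen CD45, was at 672 and 510 CPM in barcodes with 0 Ncr1 UMIs and at 1598 CPM in those with at least 3 in both libraries. Col1a2, a collagen gene of stroma, went the other way, from 783 and 842 CPM to 295 and 411 CPM. NK RNA in these barcodes thus moved with their Entpd1 level, and its part in that level was not tested.

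Without an Ncr1 UMI, 174 and 614 tumour-like barcodes held 9 and 13 Entpd1 UMIs, 5.28-fold (2.78 to 11.6) and 9.85-fold (5.75 to 18.5) below NK cells. They held 4 and 22 Adora2a UMIs, 8.12 and 12.3 CPM. Nt5e was at 4.12 CPM and 1.68 CPM in all tumour-like barcodes, from 7 UMIs each, which was 1.08 times (0.424 to 2.31) and 0.458 times (0.179 to 0.978) its NK level. Without an Ncr1 UMI only 2 and 1 of these Nt5e UMIs were left. CD73 is widely found on stroma and carcinoma cells, and these counts are too low to place Nt5e above or below the NK cells in the IL-15SA library.

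CD39 is abundant on macrophages and endothelium, so their markers were read in the NK cells. Of 9 macrophage and monocyte markers, 6 had UMIs in the IL-15SA library and 5 in the combination library, with summed levels of 12.7 and 13.2 CPM. C1qa and C1qc were at 0 in both. Cells with an Entpd1 UMI had 12.5 and 14.7 CPM of this list and cells without had 12.8 and 12.8 CPM. The 5 endothelial markers summed to 109 and 83.9 CPM, with Emcn at 0 in both, and to 119 and 87.7 CPM in cells with an Entpd1 UMI against 105 and 83.0 CPM in cells without. In cells with an Entpd1 UMI, Cdh5 was also at 0 in the IL-15SA library, and Cdh5 and Kdr in the combination library. In cells without, Kdr was also at 0 in the IL-15SA library. In cells with an Adora2a UMI, Cdh5, Kdr, Vwf and Emcn were at 0 in both libraries. Pecam1 alone gave the sums of 102 and 74.7 CPM there. The part of endothelial RNA was not tested. The 9 stroma markers summed to 1059 and 828 CPM in all NK cells, with Lum at 0 in the IL-15SA library, and were higher in cells with an Entpd1 UMI (1189 and 925 CPM) than in cells without (998 and 804 CPM). The 7 tumour epithelial markers summed to 4311 and 3986 CPM over all NK cells, where each was detected. Their sums were 4629 and 4279 CPM in cells with an Entpd1 UMI and 4164 and 3915 CPM in cells without. In cells with an Entpd1 UMI, Krt8 and Cldn4 were at 0 in the IL-15SA library and Cldn4 in the combination library. The sums of the stroma and tumour lists were thus higher in cells with an Entpd1 UMI, as was the list of NK markers given below. These sums cannot be read as amounts of tumour or stroma RNA. Thy1 of the stroma list is also among the markers listed for immature NK cells. In combination cells with an Nt5e UMI, the tumour list summed to 3860 CPM from 3 markers, with Krt8, Krt18, Cldn4 and Itgb4 at 0. Entpd1 itself was lower in the tumour-like barcodes than in NK cells of the same library. The 6 mast cell and basophil markers summed to 14.1 and 11.4 CPM, with Ms4a2 and Fcer1a at 0, and the 5 neutrophil markers to 0.226 and 0.216 CPM, with S100a9 at 0. Of 9 T cell markers, 9 and 8 had UMIs, with 431 and 537 CPM in all NK cells, 413 and 474 CPM in cells with an Entpd1 UMI and 439 and 552 CPM in cells without. The 8 dendritic cell markers, which include the cluster 4 genes Cd74 and H2-Aa, summed to 50.04 and 213 CPM in cells with an Entpd1 UMI and to 91.1 and 142 CPM in cells without, with Cd209a at 0 in all NK cells; their part was not tested. The 12 NK markers were all detected and summed to 38748 and 35453 CPM in all NK cells. Their sum was also higher in cells with an Entpd1 UMI (42247 and 40233 CPM) than in cells without (37123 and 34310 CPM). Cells with an Entpd1 UMI were deeper, with medians of 4140 and 2973 UMIs against 2936 and 2344 UMIs, and the part of depth was not tested.

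Around the 4 genes, 11 lists of the purine and cAMP pathways held 106 genes with a row in the files, of which 67 reached 5 CPM in 1 library. Of these 67, 7 (10.4%) were past 1.5-fold higher in the combination library, against 2.27% of all genes, and 1 (1.49%) was past 1.5-fold lower, against 0.545%. The lists were drawn up with earlier results of these libraries known, so this difference in shares is a description and supports nothing about the pathway, and in cells matched on UMIs per cell 3 genes in all were past 1.5-fold. The median log2 ratio of the 67 was 0.02, against -0.0022 for all genes. In the ecto-enzymes upstream of AMP, 3 of 8 genes were measured: Entpd1, the pyrophosphatase gene Enpp1 (15.7 and 15.1 CPM) and Cd38, which encodes an NAD glycohydrolase (21.9 and 24.7 CPM, ratio 1.13, 1.01 to 1.26). Entpd2, Entpd3 and Entpd8, the other genes of surface enzymes related to CD39, had between 0 and 7 UMIs.

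Next to CD73, 2 further phosphatases that can make adenosine from AMP were listed. Acpp, the gene of prostatic acid phosphatase, was at 22.9 CPM with IL-15SA alone and at 36.3 CPM with the combination (ratio 1.58, 1.43 to 1.75). Its level was higher in the combination library in 5 of 6 clusters, with an interval above 1 in 4, and at 15.9 and 9.47 CPM in cluster 6 it was not (0.595, 0.254 to 1.25). Acpp was highest in cluster 4, at 76.3 and 104 CPM, the cluster with the least Entpd1. Without cluster 4 its log2 ratio was 0.42, under 1.5-fold. Alpl, the other phosphatase gene, had 12 and 5 UMIs.

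Genes that remove adenosine or carry it across the membrane were not past 1.5-fold in any measured case. Ada, the gene of adenosine deaminase, was at 131 and 144 CPM (ratio 1.10, 1.05 to 1.15). Adk, the gene of adenosine kinase, was at 32.1 and 24.8 CPM, 1.29-fold lower with the combination (1.17 to 1.43). It was lower in 5 of 6 clusters, with an interval below 1 in 3. Slc29a1, which encodes the equilibrative transporter ENT1, was at 77.2 and 65.4 CPM, 1.18-fold lower (1.11 to 1.26). Its level was lower in 3 of 6 clusters, each with an interval below 1, and higher in 3, with 0 intervals above 1. Ahcy, whose enzyme releases adenosine from S-adenosylhomocysteine, was at 5.39 and 3.596 CPM.

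Among the ATP and UDP receptors 4 of 14 genes were measured. P2ry12, an ADP receptor gene best known from platelets and microglia, was the list gene past 1.5-fold lower, at 9.39 and 4.57 CPM (2.06-fold lower, 1.65 to 2.57). It was highest in cluster 6, where it was at 30.6 and 29.5 CPM and did not differ detectably (ratio 0.962, 0.601 to 1.5004), while in clusters 1 and 2 its interval lay below 1. P2ry14, the receptor gene for UDP-sugars, was at 155 and 126 CPM, 1.23-fold lower (1.17 to 1.29). P2ry10 was at 61.5 and 65.3 CPM. P2rx7, the gene of the ATP-gated channel that senses high ATP, had 21 and 45 UMIs and lay under 5 CPM. For ATP release, the channel gene Panx1 was at 19.3 and 23.3 CPM (ratio 1.21, 1.07 to 1.36).

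**Figure D5:**
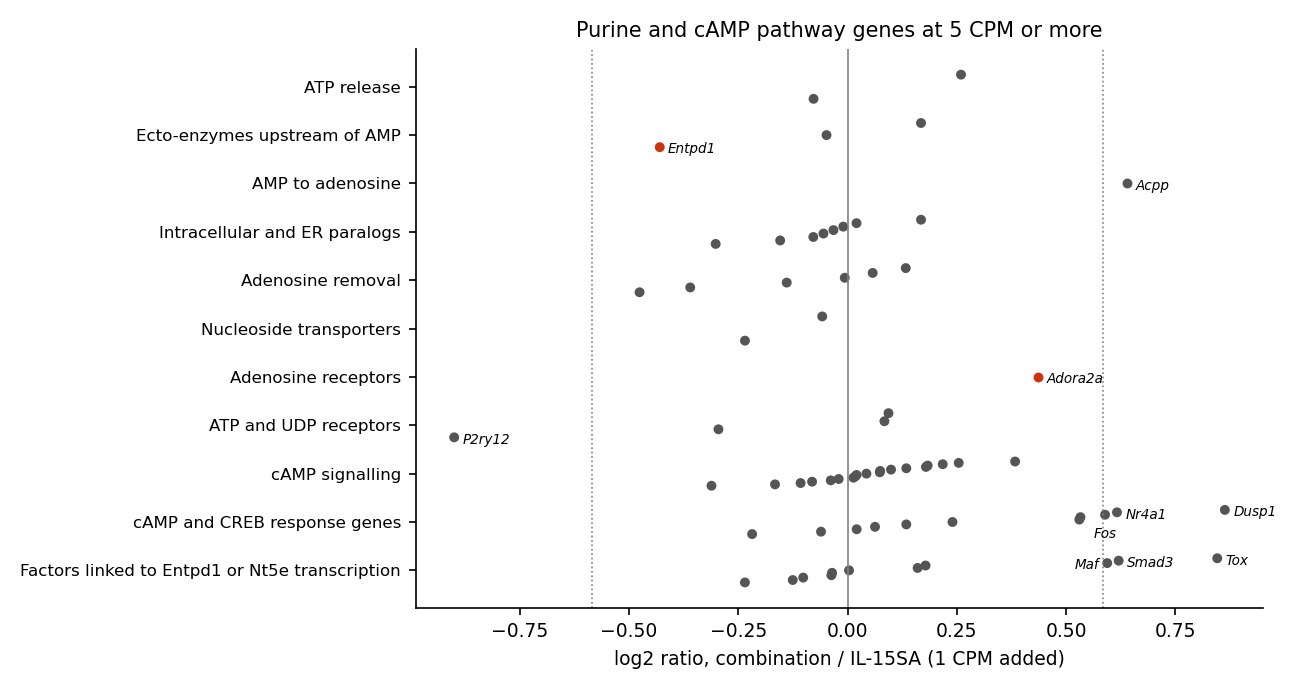
Log2 ratio of the combination over the IL-15SA library with 1 CPM added (horizontal axis) in Ncr1-positive NK cells, 1 point per list gene at 5 CPM or more, in rows by list; dotted lines mark 1.5-fold. Entpd1 (-0.43) and Adora2a (0.44) are in red, and the 8 genes past 1.5-fold are named.

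Downstream of the receptors, 19 of 23 cAMP signalling genes were measured and 0 were past 1.5-fold, against 2.81% of all genes, a share at which 0 of 19 says little. Of the 19, 13 were higher and 6 lower, where 49.6% of all genes were higher, and the median log2 ratio was 0.04. Gnas, the gene of the stimulatory G protein, was at 664 and 699 CPM and Gnai2, of an inhibitory one, at 1532 and 1448 CPM. The phosphodiesterase gene Pde4d was at 21.0 and 27.6 CPM (ratio 1.32, 1.18 to 1.47) and the adenylyl cyclase gene Adcy7 at 28.1 and 33.7 CPM (1.20, 1.09 to 1.32). Prkar2a, of a regulatory subunit of protein kinase A, was at 15.7 and 12.5 CPM, 1.26-fold lower (1.09 to 1.46).

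All 11 genes of the list of cAMP and CREB response genes were measured, 9 of them higher in the combination library, against 49.6% of all genes, with a median log2 ratio of 0.24. Past 1.5-fold higher were 3 of the 11, against 2.27% of all genes, namely the phosphatase gene Dusp1 (377 and 686 CPM, ratio 1.82, 1.78 to 1.87), the nuclear receptor gene Nr4a1 (371 and 570 CPM, 1.53, 1.496 to 1.57) and Fos (149 and 225 CPM, 1.51, 1.45 to 1.57). Each of these 3 was higher in 6 of 6 clusters with an interval above 1 in all 6. They are immediate early genes that many other stimuli also induce, so the list is not specific to cAMP. Rgs2, a regulator of G protein signalling, was at 294 and 425 CPM. Crem, whose short form ICER is a classical cAMP-induced repressor, was at 167 and 144 CPM, 1.16-fold lower (1.12 to 1.22). Its level was lower in 6 of 6 clusters, with an interval below 1 in 3.

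Of 13 genes of transcription factors linked to Entpd1 or Nt5e in other cells, 11 were measured and 3 were past 1.5-fold, each higher in the combination library, against 2.27% of all genes. Tox was at 11.2 and 20.9 CPM (ratio 1.87, 1.62 to 2.16), Smad3, a mediator of TGF-beta signals, at 11.5 and 18.2 CPM (1.58, 1.37 to 1.83) and Maf at 27.1 and 41.5 CPM (1.53, 1.39 to 1.68). Each was higher in 6 of 6 clusters, with an interval above 1 in 4 for Tox, 2 for Smad3 and 3 for Maf. Within clusters the Maf ratio ran from 1.02 to 1.44, under 1.5-fold in each. Maf was highest in cluster 4, at 74.9 and 93.9 CPM, which held 956 and 2075 of the NK cells. Stat3, a main transducer of IL-21 receptor signals, was at 167 and 190 CPM (1.13, 1.09 to 1.18), and Hif1a at 79.7 and 73.0 CPM, 1.09-fold lower (1.03 to 1.16). Runx3 was at 106 and 106 CPM. In cells matched on UMIs per cell, 6159 per library, Dusp1, Nr4a1 and Tox were past 1.5-fold and Acpp, Fos, Maf, Smad3 and P2ry12 were not, while Entpd1 had a ratio of 0.725 (0.676 to 0.776) and Adora2a one of 1.28 (1.19 to 1.38).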

How the data were processed

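The deposited values are raw UMI counts per gene and barcode, not normalized, with cells of a treatment pooled before loading per the labels' protocols. The submitters' processing notes name cutadapt, featureCounts, Seurat 4, Scanpy and the build mm10, with no roles; the aligner and annotation were not given in the sources used here. Sample titles gave the groups. Of the 53715 gene IDs, 53620 are in GENCODE M21.

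Filters of 200 genes or more and 20% mitochondrial UMIs or less per barcode took out 0 and 5 barcodes. Scrublet with its own threshold called 2 and 1 doublets, too few to have worked, so the 5% with the highest score (419 and 622) were removed, leaving 7967 and 11808. Genes found in at least 20 cells were scaled to 10000 UMIs per cell and log-transformed, and 2000 variable genes, standardized and limited to 10, gave 30 principal components, 15 neighbours and 8 Leiden clusters at resolution 0.5. A cluster was tumour-like with at least 3 tumour or stroma markers at 5 times their median over clusters and NK markers at a median ratio under 0.67. Names of clusters are rebuilt here and can differ from the study's.

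Counts were summed per library. Intervals are exact Poisson (levels), exact conditional binomial (ratios) and Clopper-Pearson (shares), at 95%. The floor for a count of 0 is 3 UMIs. Since each group is 1 library, no test was made. The members and lists were chosen with earlier results of these data known. Of each list the rule names genes past 1.5-fold, the 4 highest in level and the 3 largest log2 ratios at 5 CPM or more; the text gives part of them, and Entpd2, Entpd3, Entpd8, Alpl, P2rx7 and Crem were named outside it. Acp3, Pnp and Areg, which had no single row in the files, were not used. The text gives the marker lists that bear on Entpd1; those of mature NK cells and the cell cycle are left out, and 1 further list is not reported here. Sequences are RefSeq's; 3 of the 4 genes matched, Adora2a did not. Alternatives were other cells, doublet handling, depth, resolution, scaling and filters, and, chosen after seeing the data, cells without an Ncr1 UMI, each cluster left out and an equal cluster mix. Steps were tested on simulated data. Python 3.11.15, scanpy 1.11.5, numpy 2.4.6, scipy 1.17.1 and leidenalg 0.10.2 were used.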

Additional observations from a re-analysis of the deposited data

How the results depend on the processing

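Over 15 alternatives the Entpd1 ratio ran from 0.700 to 0.778, that of Nt5e from 0.766 to 1.18 and that of Adora2b from 0.895 to 1.26, each within the interval reported. The Adora2a ratio ran from 1.27 to 1.42 and left its interval in 1 alternative, at 1.27 with the cluster mix of the IL-15SA library in both. The count of 8 list genes past 1.5-fold fell to 3 in cells matched on UMIs per cell, 4 with the mean of per-cell CPM, 5 without cluster 4 and 4 without cluster 6; 13 other alternatives stayed within 1.5 times of 8. Dusp1 and Tox were past 1.5-fold in 14 of 14 alternatives on cells and scaling, and Maf in 7 of 14. The share of cells with an Entpd1 UMI was 25.6% and 16.0% not thinned and 4.70% and 3.64% at 500 UMIs, against 8.55% and 6.83% at 1000. Tumour-like over NK, Entpd1 was at 0.421 and 0.232, and at 0.192 and 0.132 with resolution 1.0, 0.563 and 0.374 with the mean of per-cell CPM, and 0.189 and 0.102 without an Ncr1 UMI; Nt5e in the combination library went from 0.458 to 0.152 without an Ncr1 UMI. The cause of these moves was not tested. The planned use of the tumour-like cluster with the lowest Ncr1 level gave no separate value, since 1 cluster was tumour-like. No paired analysis was possible because the 2 groups have 1 library each. With 1 library per group, animal, pool and library effects cannot be told apart from treatment, and Nt5e and Adora2b, with 71 to 102 UMIs per library, are limited by depth.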

Other observations

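The genes most like Entpd1 over the 12 cluster profiles were sought among 5064 genes at 20 CPM or more in both libraries. They were the granzyme genes Gzma (Pearson r 0.953) and Gzmb (0.938) and 4 genes of the Ly49 family. The latter were the pseudogene Klra13-ps (0.917) and the receptor genes Klra1 (0.909), Klra7 (0.905) and Klra3 (0.883). Ly49 genes are near-identical copies, so reads may be split among them and their values are uncertain. Gzma was at 17841 and 15664 CPM in NK cells of the IL-15SA and the combination library, and Gzmb at 7251 and 5618 CPM. The levels of the 4 Ly49 genes had log2 ratios from -0.02 to 0.21, while Entpd1 had -0.43.

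For Adora2a, a comparison added after its values were seen, the most alike were the cyclin gene Ccnd3 (0.961), the kinase gene Fyn (0.957), Gm19585 (0.955), the protein kinase C gene Prkca (0.953), Gsap (0.949) and the adhesion gene Icam1 (0.947). No gene was among the 6 for both. These correlations describe points that share 2 libraries and their depth, and clusters were made from genes of the same cells.

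NK-compartment barcodes without an Ncr1 UMI, 399 and 693, had Entpd1 at 102 and 75.5 CPM (ratio 0.743, 0.553 to 1.00) and Adora2a at 60.7 and 95.5 CPM (1.57, 1.13 to 2.21).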
